A study of Homo sapiens with 12 samples.

Results

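The genes described here are 51 protein-coding genes of chromosome 6 outside the HLA and histone clusters, picked by location and described as lacking interferon roles. Their symbols were taken from a table of 27685 genes, all 51 were found, and all 51 were among the 15769 genes with enough counts to be tested. Because they were picked knowing that chromosome 6 genes were lower in one of the cell lines, the difference between the lines is given below as a description, without a test.

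The cells were U251, an established human glioblastoma line, used at passages 14 to 18. One line stably expressed a control short hairpin RNA (shCTRL) and the other a hairpin against the RNA INCA1 (shINCA1). Each was left untreated or given interferon gamma (IFNγ) for 24 h, which made 4 groups of 3 libraries each, 12 in all, and poly(A) RNA was sequenced. All 4 groups therefore carry a hairpin, and the labels describe 1 stable line per hairpin without saying whether it is a clone or a pool, so the hairpin and whatever else separates the lines cannot be told apart. Whether the 3 libraries of a group were grown separately is not stated. The p-values therefore rest on the variation among these libraries, part of which can be technical. The level of the hairpin's target was not analysed here.

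IFNγ is a cytokine that acts through a receptor on the cell surface and changes transcription. Promoters of responding genes often hold gamma-activated sites (GAS) or interferon-stimulated response elements (ISRE). The genes described here mostly serve general cell upkeep: transcription and chromatin, signalling, the cytoskeleton, membrane traffic, RNA handling, translation and folding, and organelles. Their place on chromosome 6 is what they have in common, and they come from both of its arms.

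Library totals ran from 46525032 to 66242859 estimated counts, and log2 levels of libraries of a group correlated at 0.993 to 0.995. Levels below are CPM, that is counts relative to library totals scaled by the TMM method, and differences are log2 values with the standard error of the fit. Of the glial and glioblastoma markers, VIM (1780 to 2630 CPM), CD44 (564 to 908), SOX9 (112 to 211), SOX2 (78.1 to 129) and NES (26.9 to 142) were present in all libraries, while GFAP, S100B and OLIG2 stayed at 2.95 CPM or below. The 8 glial markers summed to 3450 to 3680 CPM in shCTRL and 2990 to 3050 in shINCA1 libraries, a sum that is mostly VIM. They did not move together: NES was at 112 to 142 CPM in shCTRL and 26.9 to 35.6 in shINCA1 libraries, while CD44 was at 564 to 664 and 816 to 908 and OLIG2 at 0.133 to 0.331 and 0.784 to 1.53. None of the 4 immune markers passed the filter on low counts, and they summed to 0.162 CPM at most. Of 3 epithelial markers KRT18 alone was tested. Their sum was 86.1 to 93.4 CPM in shCTRL and 235 to 263 in shINCA1 libraries, with EPCAM and CDH1 at 0.199 CPM or below. The summed endothelial markers, of which 2 of 3 were tested, reached at most 2.69 CPM. The part of these marker differences in the differences between the lines was not tested.

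The promoter sequences shown belong to RAB23 and MYO6, which rose with IFNγ in both lines, and to SGK1, whose response differed between the lines, and are given so that they can be read beside those responses. They are the 250 bases before a RefSeq start on GRCh38.p14, 5′ to 3′ on the strand of the gene. Since the counts were made on hg19, the build serves here for location only, and which start the cells used is not in the files. Capitals mark the only match to the motifs searched on both strands, which were GAS (TTCNNNGAA, the same on both strands) and the ISRE core (GAAA and GAAA with any 2 bases between them, which reads TTTC, 2 bases, TTTC on the other strand), which can overlap. The match lies 220 to 211 bases before 1 of the 3 SGK1 starts, and it is a description of the letters, not a site. Of the SGK1 promoters only the one with the match is shown, and the others held no match.
SGK1, chr6:134318113-134318362, minus strand: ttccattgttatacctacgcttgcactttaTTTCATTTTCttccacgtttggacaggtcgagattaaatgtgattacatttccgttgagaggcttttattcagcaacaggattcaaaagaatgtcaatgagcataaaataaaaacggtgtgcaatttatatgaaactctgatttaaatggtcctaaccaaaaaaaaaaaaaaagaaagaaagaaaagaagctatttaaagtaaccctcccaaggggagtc
RAB23, chr6:57221463-57221712, minus strand: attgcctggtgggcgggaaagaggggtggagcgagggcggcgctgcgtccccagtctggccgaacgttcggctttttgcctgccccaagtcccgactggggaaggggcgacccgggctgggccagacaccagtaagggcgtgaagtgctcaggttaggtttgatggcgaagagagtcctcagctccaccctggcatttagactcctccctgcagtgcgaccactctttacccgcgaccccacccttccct
RAB23, chr6:57222308-57222557, minus strand: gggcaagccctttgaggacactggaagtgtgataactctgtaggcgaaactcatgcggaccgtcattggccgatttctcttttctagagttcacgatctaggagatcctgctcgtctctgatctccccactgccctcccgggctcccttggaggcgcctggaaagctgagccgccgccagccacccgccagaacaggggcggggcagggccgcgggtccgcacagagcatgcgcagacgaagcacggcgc
MYO6, chr6:75748989-75749238, plus strand: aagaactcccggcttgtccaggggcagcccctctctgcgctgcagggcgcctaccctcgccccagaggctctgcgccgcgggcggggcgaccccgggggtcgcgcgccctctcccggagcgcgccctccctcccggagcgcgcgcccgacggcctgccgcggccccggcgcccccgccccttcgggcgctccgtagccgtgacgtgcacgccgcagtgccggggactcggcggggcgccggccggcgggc

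Of the 51 genes 49 matched a RefSeq promoter, with 86 promoters between them, and QKI and TULP4 had none. A GAS match was found in 4 of the 86 (4.65%), those of AKAP12, ATG5, MAP7 and SYNCRIP, and in 6.57% of all 35116 promoters of the same length. An ISRE-core match was found in 2 of the 86 (2.33%), those of FOXO3 and SGK1, and in 3.02% of all promoters.

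The members were lower in shINCA1 than in shCTRL cells by a median of -0.67 (log2) untreated, with quartiles of -0.98 and -0.47, and by -0.70 with IFNγ, with quartiles of -0.95 and -0.47. Averaged over both conditions, the median was -0.68, a 1.61-fold lower level. Set to its bound of -5.16, TPD52L1 was still the lowest member, so the untreated median could only stay at -0.674. At an adjusted p of 0.05 (edgeR's quasi-likelihood fit) 48 of the 51 were called lower and 2 higher in untreated cells, against 29.5% and 27.4% (56.9% together) of all tested genes. With IFNγ 47 were called lower and 2 higher, against 30.2% and 28.7% (58.9% together). Averaged over both conditions the members again counted 48 and 2, against 34.7% and 33% of all genes. The choice of genes used this comparison, so nothing is read from these shares. The bulk libraries do not tell apart fewer cells of a type and less RNA per cell.

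**Figure D1:**
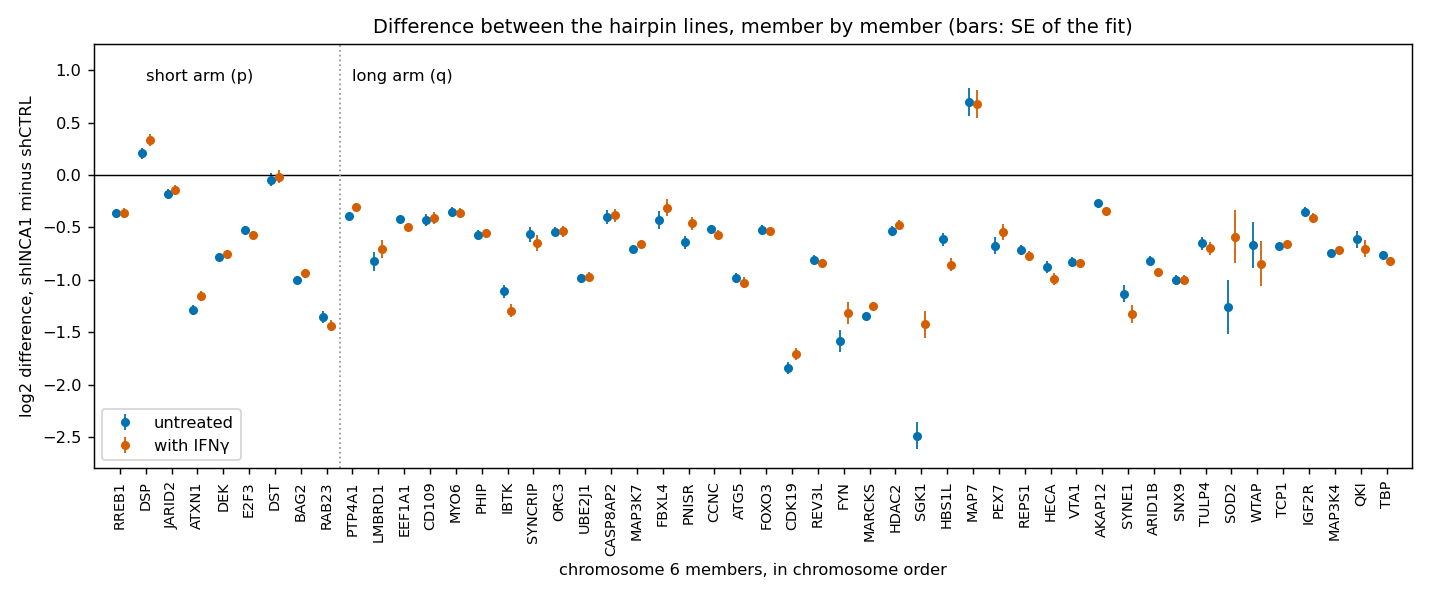
Line difference of each member, shINCA1 minus shCTRL (log2, with the standard error), untreated and with IFNγ, in chromosome order; TPD52L1, whose shINCA1 libraries are at or near 0 counts, is left out. Untreated values lie between -2.49 and 0.69, and all but MAP7 and DSP are below 0 in both conditions.

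The plot of line differences by gene shows the spread in size. Untreated, 26 of 51 lay within 0.25 of the median and 40 lay more than 2 standard errors from it, the median standard error being 0.0491. With IFNγ these numbers were 26 and 39. Genes elsewhere also spread about their own median. Among untreated genes at 20 CPM or more, 53.3% of 45 members lay within 0.25. The shares were 60.8% of 362 other chromosome 6 genes and 58.1% of 7544 genes off chromosome 6, so the members had the lowest share. More than 2 standard errors away were 36 of the 45 members, 245 of the 362 genes and 5349 of the 7544 genes. Leaving out TPD52L1, the standard deviation over members was 0.498 untreated and 0.435 with IFNγ. In 44 of 51 genes all 6 shINCA1 libraries were below all 6 shCTRL libraries, in 2 (DSP and MAP7) all 6 were above, and in JARID2, DST, MYO6, SOD2 and WTAP they overlapped. Over all tested genes these shares were 22.5% below and 21.6% above.

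The lower median was present in each library. Set against the untreated shCTRL mean, the median over members of log2(CPM + 0.5) was -0.69 to -0.61 in the untreated shINCA1 libraries and -0.67 to -0.60 with IFNγ, and -0.04 to 0.05 in the 6 shCTRL libraries. The members took 1.58 to 1.71% of all counts in shCTRL and 1.12 to 1.15% in shINCA1 libraries. Most of this share is EEF1A1, and without it the members took 0.633 to 0.666% and 0.409 to 0.433%. The spread among libraries of a group was small beside this: over the 45 members at 20 CPM or more, the median coefficient of variation was 3.05 to 3.52%.

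**Figure D2:**
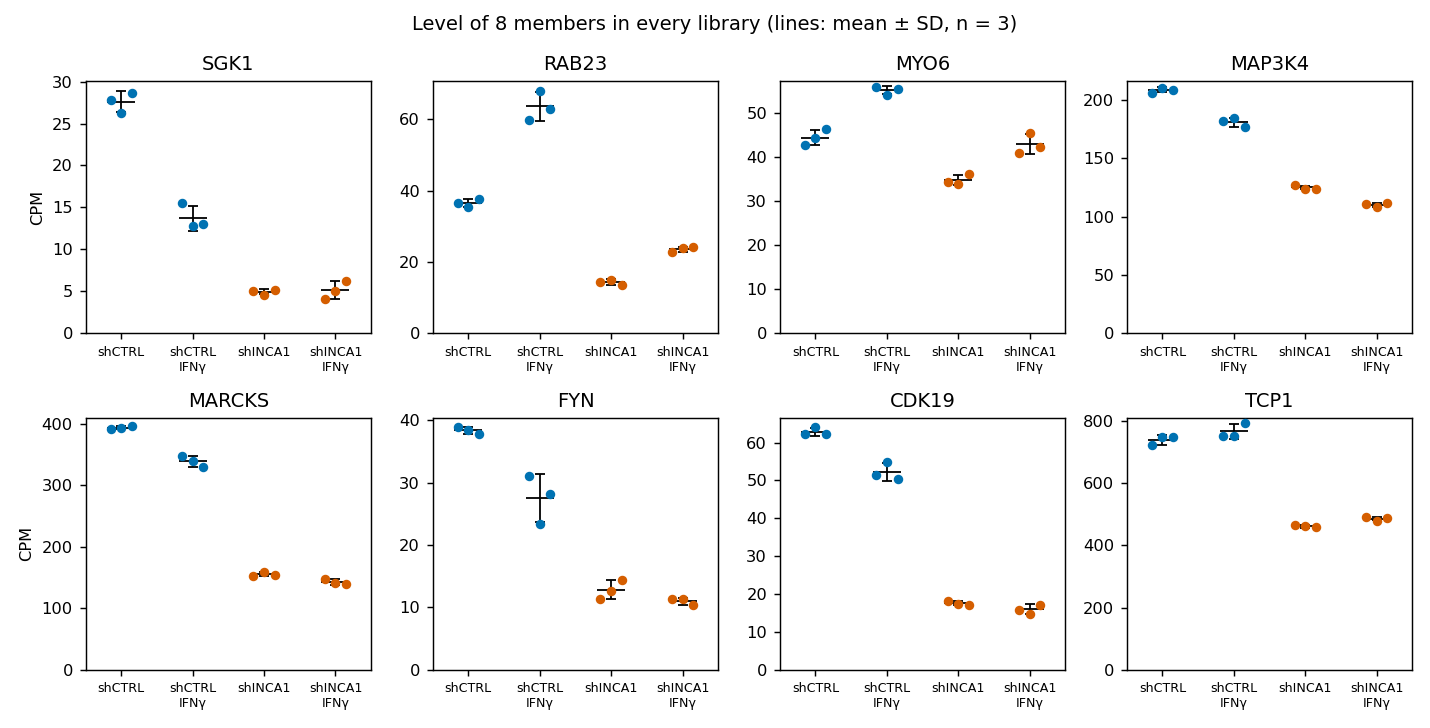
CPM of SGK1, RAB23, MYO6, MAP3K4, MARCKS, FYN, CDK19 and TCP1 in each of the 12 libraries (vertical axes start at 0), 3 points per group, with mean and SD as lines. The shINCA1 points lie below the shCTRL points in both conditions, except in the MYO6 panel, where treated shINCA1 and untreated shCTRL libraries overlap.

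The plot of levels by library shows 8 of the members named below, grouped by role. Whether a member is called lower refers to the average over both conditions, in which 34.7% of all tested genes were called lower. The counts by role describe genes chosen with this comparison known, and differences between role groups were not tested. The 14 genes of transcription and chromatin were lower in shINCA1 cells in all 14 cases, with a median of -0.56 and a range from CDK19 (-1.77) to JARID2 (-0.16). CDK19, a kinase of the Mediator coactivator, was at 62.3, 64.1 and 62.3 CPM in untreated shCTRL, 51.5, 55 and 50.3 in shCTRL with IFNγ, 18.1, 17.4 and 17.2 in untreated shINCA1 and 15.9, 14.8 and 17.2 CPM in shINCA1 with IFNγ. The highest shINCA1 library was thus below the lowest shCTRL library. ATXN1, a transcriptional regulator that carries the polyglutamine tract of spinocerebellar ataxia, differed by -1.29 ± 0.05 untreated and -1.15 ± 0.05 with IFNγ. ARID1B, a DNA-binding subunit of the SWI/SNF chromatin remodeller, differed by -0.82 ± 0.04 and -0.93 ± 0.04. TULP4, a tubby-like protein, was near the median of all members with -0.65 ± 0.06 and -0.70 ± 0.06. At the other end, RREB1, a zinc-finger factor downstream of RAS, gave -0.37 ± 0.05 and -0.36 ± 0.05. JARID2, a cofactor of the Polycomb complex PRC2, was at 39, 41.1 and 41.3 CPM in untreated shCTRL and 33.9, 37.8 and 35.4 in untreated shINCA1 cells, and its groups overlapped once IFNγ libraries were included. The others of this group (TBP, DEK, PHIP, E2F3, CCNC, FOXO3, HDAC2 and CASP8AP2) had averages from -0.79 to -0.39.

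The 10 genes of signalling and scaffolds had the lowest median, -1.07, and 10 of 10 were lower. TPD52L1, a coiled-coil protein related to tumor protein D52, was near 0 in shINCA1 cells: its untreated shCTRL libraries held 2.07, 1.66 and 1.49 CPM and the untreated shINCA1 libraries held 0 counts. Against a floor of 3 counts per library (0.0487 CPM over the group) this is at least 35.8-fold lower. With IFNγ, shCTRL held 1.87, 1.68 and 1.55 CPM and shINCA1 0.105, 0 and 0, a pooled ratio of 45.0 with a 95% exact interval of 20.4 to 124 that covers counting error only and is too narrow for counts that fall in steps of 3. SGK1, a kinase induced by serum and glucocorticoids that regulates ion transport, had the next largest difference, -2.49 ± 0.13 untreated and -1.42 ± 0.13 with IFNγ. FYN, a SRC-family tyrosine kinase, had 38.9, 38.4 and 37.8 CPM in untreated shCTRL, 31, 23.4 and 28.2 in shCTRL with IFNγ, 11.3, 12.7 and 14.4 in untreated shINCA1 and 11.4, 11.3 and 10.4 in shINCA1 with IFNγ. No library of one line reached the other, and the lines differed by -1.58 ± 0.10 and -1.32 ± 0.10. MARCKS, a membrane-bound substrate of protein kinase C that binds actin, was lower by -1.34 ± 0.03 and -1.25 ± 0.03, and IBTK, an inhibitor of Bruton tyrosine kinase, by -1.11 ± 0.06 and -1.30 ± 0.06.

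MAP3K7, the TAK1 kinase of NF-κB and MAP kinase signalling, is the median of the set. Its levels were 124, 134 and 126 CPM in untreated shCTRL, 128, 131 and 129 with IFNγ, 77.1, 77.5 and 81.1 in untreated shINCA1 and 81.8, 81.7 and 82.2 with IFNγ, so the lines were separate and the difference was -0.71 ± 0.03 and -0.66 ± 0.03. MAP3K4, a kinase upstream of p38 and JNK, was close to it with -0.74 ± 0.03 and -0.71 ± 0.03. AKAP12, a scaffold for protein kinases A and C, had the smallest difference of this group on average, with -0.27 ± 0.04 and -0.34 ± 0.04. HECA and PTP4A1, the others of this group, were at -0.93 and -0.35 on average.

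The 6 genes of the cytoskeleton, adhesion and cell surface were the group with the fewest of its genes lower, 3 of 6, and the averages ran from SYNE1 (-1.23) to MAP7 (0.69). SYNE1, a nuclear-envelope spectrin-repeat protein that links the nucleus to actin, differed by -1.13 ± 0.08 untreated and -1.33 ± 0.09 with IFNγ. MYO6, a motor that moves towards the minus end of actin filaments, and CD109, a GPI-linked surface protein, were lower by an average of -0.36 and -0.42. DST, a spectraplakin that links cytoskeletal filaments, was at 348, 366 and 399 CPM in untreated shCTRL, 384, 415 and 407 in shCTRL with IFNγ, 348, 386 and 344 in untreated shINCA1 and 370, 400 and 421 in shINCA1 with IFNγ, so the libraries overlapped (-0.05 ± 0.06, and -0.02 ± 0.06 with IFNγ). DSP, which encodes the desmosomal protein desmoplakin, was higher in shINCA1 cells, at 33.1, 33.1 and 33.3 CPM in untreated shCTRL, 26.5, 30.6 and 26.7 in shCTRL with IFNγ, 38.8, 38.7 and 37.4 in untreated shINCA1 and 35.9, 33.5 and 36.3 in shINCA1 with IFNγ. The differences were 0.21 ± 0.06 and 0.34 ± 0.06, in the direction opposite to most members. MAP7, a microtubule-binding protein that recruits kinesin, was low in all libraries, at 3.4, 3.39 and 3.54 CPM in untreated shCTRL, 3.03, 3.31 and 4.2 with IFNγ, 5, 5.67 and 6.04 in untreated shINCA1 and 5.35, 6.53 and 5.06 with IFNγ. It was higher in shINCA1 cells by 0.69 ± 0.14 untreated and 0.68 ± 0.14 with IFNγ.

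The 6 genes of membrane traffic, sorting and receptors were lower in 6 of 6, with a median of -0.80. RAB23, a small GTPase that restrains Hedgehog signalling, was the lowest at an average of -1.40, and IGF2R, the receptor that carries mannose-6-phosphate-tagged enzymes to lysosomes, the highest at -0.38. Of the others, SNX9 (-1.0), VTA1 (-0.84), LMBRD1 (-0.76) and REPS1 (-0.74) lay around the group's median. The 4 genes of RNA binding and processing, WTAP (-0.76), QKI (-0.66), SYNCRIP (-0.61) and PNISR (-0.55), stood close together. QKI, an RNA-binding protein of glial splicing, had 134, 156 and 177 CPM in untreated shCTRL and 97.5, 110 and 97.6 in untreated shINCA1 cells, so its groups did not overlap.

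The 5 genes of translation, folding and protein turnover were lower in 5 of 5, from UBE2J1 (-0.98) and BAG2 (-0.97) over HBS1L (-0.73) to EEF1A1 (-0.46). TCP1, a subunit of the ring chaperonin CCT that folds actin and tubulin, stood near the median of all members with 722, 749 and 750 CPM in untreated shCTRL, 753, 753 and 794 with IFNγ, 467, 462 and 458 in untreated shINCA1 and 490, 480 and 489 with IFNγ. EEF1A1, which delivers aminoacyl-tRNA to the ribosome, was the most abundant at 9480, 9490 and 9730 CPM in untreated shCTRL, 9640, 10200 and 10500 with IFNγ, 7060, 7200 and 7170 in untreated shINCA1 and 7260, 7020 and 7160 with IFNγ. Its reads may be split with 49 named pseudogene copies. Of the 6 genes of organelles, autophagy and genome copying all 6 were lower: ATG5 (-1.0), SOD2 (-0.93), REV3L (-0.82), PEX7 (-0.61), ORC3 (-0.54) and FBXL4 (-0.37).

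SOD2, the mitochondrial superoxide dismutase, and WTAP, a regulator of RNA methylation, lie on opposite strands and overlap. The library kit keeps strand, but no source here says whether the counting used it, so reads of the pair may be shared. SOD2 was at 126, 134 and 133 CPM in untreated shCTRL and 76.8, 43.4 and 43.9 in untreated shINCA1 cells, and WTAP at 144, 151 and 96.8 and 88.2, 96.2 and 62.3. With IFNγ, SOD2 was at 129, 121 and 125 CPM in shCTRL and 122, 64.5 and 62.5 in shINCA1 cells. WTAP was at 94.4, 97.9 and 155 CPM in shCTRL and 64.8, 65.3 and 63.6 in shINCA1 cells with IFNγ. Among the 45 members at 20 CPM or more these 2 genes had the highest coefficients of variation, up to 40.7% for SOD2 and 29.6% for WTAP. The sums of the pair, 230.0 to 285.0 and 219.0 to 281.0 CPM in the shCTRL groups and 106.0 to 165.0 and 126.0 to 187.0 in the shINCA1 groups, did not overlap between the lines. Of the 51 members, 14 have a coding gene on the opposite strand and 7 have named pseudogene copies.

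**Figure D3:**
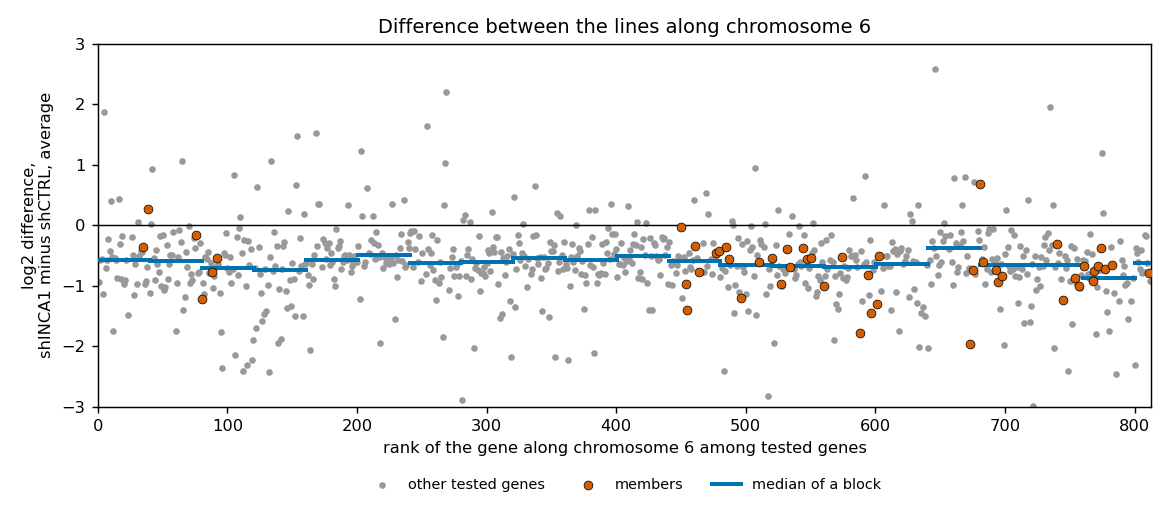
Line difference averaged over both conditions (log2) for the tested genes of chromosome 6, in order along the chromosome; members are marked, and 31 genes beyond 3 in either direction are not drawn, among them TPD52L1. Blue lines are medians of blocks of neighbouring genes. Members sit within the band of the other chromosome 6 genes, mostly below 0.

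The other 761 tested genes of chromosome 6 were also lower, with a median of -0.61 averaged over both conditions, against -0.68 for the members, and 89.5% of them were below 0. Among genes at 20 CPM or more, the 45 members had a median of -0.68 and an interquartile range of 0.43, the 362 other chromosome 6 genes -0.61 and 0.364, and the 7544 genes on other chromosomes -0.01 and 0.405. The medians of the chromosome 6 lists were lower while their spreads were of the size seen elsewhere. No test was made of these differences, since the members were chosen with results known.

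**Figure D4:**
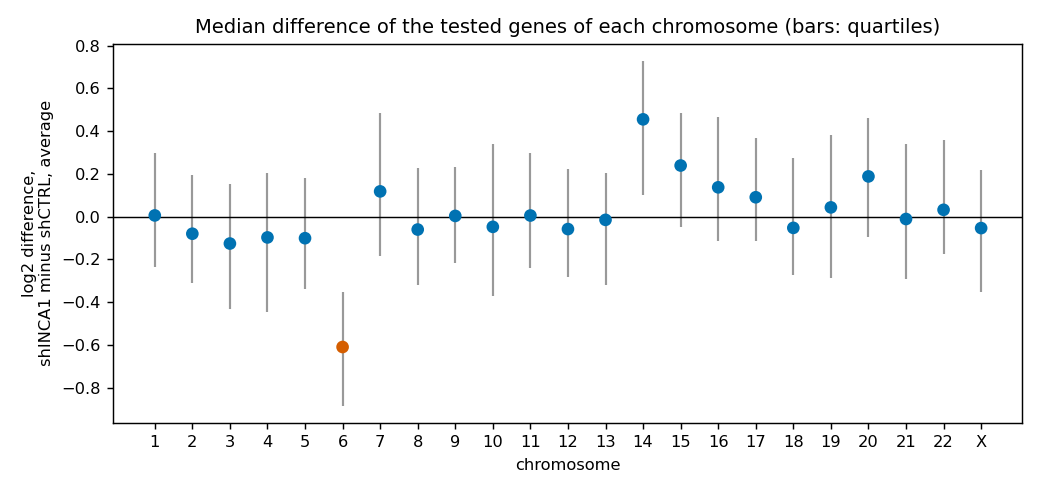
Median line difference averaged over both conditions (log2) of the tested genes of each chromosome, with quartiles as bars and chromosome 6 in orange. The chromosome 6 median is -0.61, and the other 22 lie between -0.13 and 0.45.

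The plot of chromosome medians places chromosome 6 below all 22 others shown: it was -0.61 over 812 genes, and the others ran from -0.13 for chromosome 3 to 0.45 for chromosome 14, followed by 0.24 for chromosome 15. Along chromosome 6, 21 blocks of neighbouring tested genes (40 genes each, the last with 12) had medians from -0.88 to -0.38, so no block was near 0. Members on the p arm had a median of -0.55 (9 genes) and those on the q arm -0.71 (42 genes). The median absolute difference between members was 0.42 over the 50 pairs adjacent in chromosome order and 0.39 over all 1275 pairs.

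Many of the members belong to complexes with subunits encoded on other chromosomes, while CDK19 and CCNC, both members, belong to the same module. A list of 81 partners and near relatives was drawn from textbook knowledge. The list is not complete, as TAB2, a partner of MAP3K7 on chromosome 6, is not on it. It also holds genes that share no complex with the member they are listed with, such as SOD1 for SOD2 and EEF1A2 for EEF1A1. Others of this kind are ARID1A for ARID1B, CDK8 for CDK19 and the other E2F genes for E2F3. The list had 78 tested genes, all off chromosome 6 as the list was drawn. Their median line difference was -0.03, with quartiles of -0.18 and 0.09. All tested genes off chromosome 6 had a median of 0.01 and quartiles of -0.26 and 0.34. Of the 78, 75 were above the member they were listed with. As the members were chosen from a chromosome known to be lower, that count was largely fixed in advance, and nothing is read from it. The 7 partners of TCP1 in the CCT ring had a median of -0.18, from CCT3 (-0.32) to CCT8 (0.01), against -0.67 for TCP1. The 5 genes of the Mediator kinase module listed with CDK19 and CCNC ran from MED12 (-0.19) to MED12L (0.49), against -1.77 and -0.54. The 5 autophagy partners of ATG5 had a median of -0.25, with ATG7 at -0.56, and ATG5 was at -1.0. The 8 SWI/SNF genes listed with ARID1B had a median of -0.11, against -0.87 for ARID1B. In the other direction, EZH2 (-0.46) and AEBP2 (-0.19) of PRC2 were lower than JARID2 (-0.16), and TFDP2 (-0.65) was lower than its partner E2F3 (-0.55). With IFNγ, 6 of the 78 listed genes rose and 4 fell in shCTRL cells (7.69% and 5.13%, against 9.72% and 7.51% of all tested genes; edgeR's quasi-likelihood test). In shINCA1 cells 3 rose and 1 fell (3.85% and 1.28%, against 6.13% and 2.95%).

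A further question was whether the gap between the lines stays the same under IFNγ. The response in shINCA1 minus that in shCTRL cells was tested by edgeR's quasi-likelihood test over all 15769 genes, of which 1.71% passed an adjusted p of 0.05, 0.615% as higher and 1.1% as lower. Of the 51 members 1 passed, SGK1. In 5 of the 51 members, among them SGK1, the unadjusted p was below 0.05, and in 1800 of the 15769 tested genes. In the 50 members other than TPD52L1 the line difference changed by a median of 0.0612 (absolute log2) with IFNγ. The median standard error of that change was 0.0682. Of these 50 line differences, 34 changed by at most 0.1 and 46 by at most 0.2, 23 became more negative and 27 less so. Among genes at 20 CPM or more, the line difference changed by at most 0.1 in 33 of 45 members and 5323 of 7544 genes off chromosome 6. Such stability is thus not particular to the members. Across the 50 members, which are not independent replicates, the line differences without and with IFNγ correlated at a Pearson r of 0.915 and a Spearman rho of 0.934. Without SGK1 these were 0.948 and 0.930. The 2 values share no libraries, and the correlation was not computed for other genes.

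SGK1 was at 27.8, 26.2 and 28.6 CPM in untreated shCTRL and 15.5, 12.8 and 13 in shCTRL with IFNγ, and at 4.98, 4.59 and 5.16 in untreated shINCA1 and 4.08, 5.02 and 6.26 in shINCA1 with IFNγ. In shCTRL cells the treated libraries lay below the untreated ones, in shINCA1 cells they overlapped. The response was -1.0 ± 0.12 in shCTRL (adjusted p = 0.000103, edgeR) and 0.06 ± 0.13 in shINCA1 cells (adjusted p = 0.895), and the difference of the responses was 1.06 ± 0.18 (adjusted p = 0.0124).

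**Figure D5:**
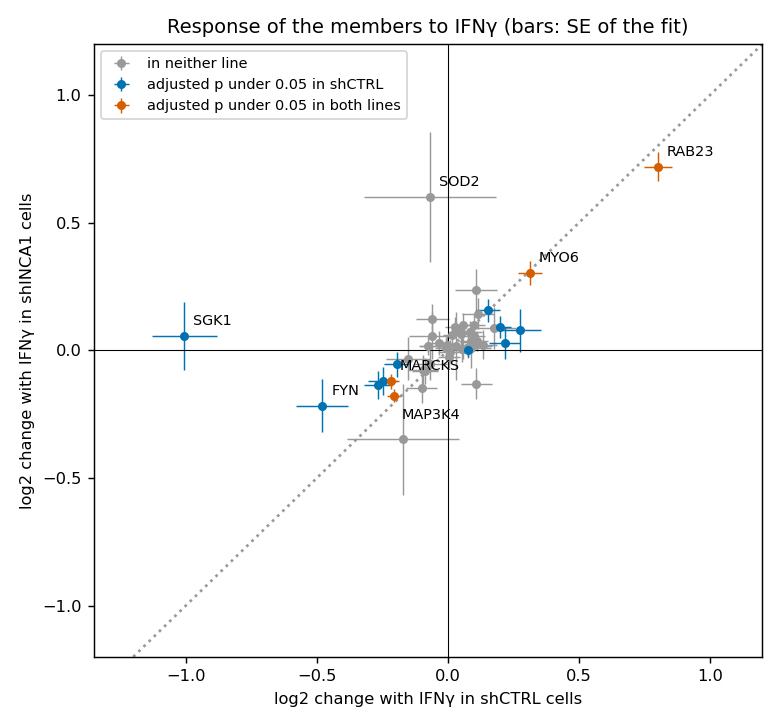
IFNγ response (log2, treated minus untreated) in shCTRL cells (horizontal axis) against shINCA1 cells (vertical axis) for the members, TPD52L1 left out, with the diagonal of equal responses; colours mark members past an adjusted p of 0.05, and bars are standard errors. RAB23 lies near 0.80 and 0.72, SGK1 at -1.0 and 0.06, and SOD2, which passed in neither line, has wide bars.

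The IFNγ response in each line was tested on its own, and low responses were partly fixed by the choice of genes without interferon roles. In shCTRL cells 7 members rose and 7 fell, 13.7% in each direction, against 9.72% and 7.51% of all tested genes. In shINCA1 cells 2 rose and 2 fell, 3.92% in each direction, against 6.13% and 2.95%. The 14 and 4 calls compare with 17.2% and 9.08% of all genes called in either direction. The median response was 0.03 in both lines. The 4 members called in shINCA1, RAB23, MYO6, MAP3K4 and MARCKS, were all among the 14 called in shCTRL, that is 28.6% of the shCTRL calls and 100% of the shINCA1 calls. A further 37 passed in neither line, and of the calls SGK1 alone reached a log2 change of 1 in either direction.

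RAB23 had the largest rise among the calls: 36.6, 35.4 and 37.5 CPM became 59.9, 68 and 63 in shCTRL, and 14.4, 14.9 and 13.5 became 22.7, 23.8 and 24.1 in shINCA1 cells, without overlap. The log2 responses were 0.80 ± 0.05 (adjusted p = 5.05e-07, edgeR) and 0.72 ± 0.06 (adjusted p = 3.12e-06), while the untreated levels differed by -1.36 between the lines. The difference of the 2 responses was -0.08 (standard error 0.08, edgeR's adjusted p = 0.797). RAB23 overlaps BAG2 on the opposite strand.

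MYO6 rose from 42.8, 44.4 and 46.4 to 56.1, 54.3 and 55.5 CPM in shCTRL (0.31 ± 0.05, adjusted p = 0.000454, edgeR) and from 34.4, 34 and 36.1 to 41.1, 45.5 and 42.3 in shINCA1 cells (0.30 ± 0.05, adjusted p = 0.000994). MAP3K4 fell from 206, 210 and 209 to 182, 185 and 177 CPM in shCTRL (-0.20 ± 0.03, edgeR's adjusted p = 0.000138) and from 127, 124 and 124 to 111, 108 and 112 in shINCA1 cells (-0.18 ± 0.03, adjusted p = 0.000765). MARCKS fell from 391, 393 and 397 to 348, 339 and 330 CPM in shCTRL (-0.22 ± 0.03, edgeR's adjusted p = 0.000244), and from 153, 159 and 154 to 148, 141 and 139 in shINCA1 cells (-0.12 ± 0.03, adjusted p = 0.0237). In both lines the treated and untreated libraries of these 3 genes did not overlap. Such separation is not particular to them. In shCTRL cells the treated libraries lay all above in 11 of the 51 members and all below in 8. In shINCA1 cells these numbers were 9 and 4. The shares over all tested genes were not computed.

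FYN, CDK19, DSP and ATXN1 fell in shCTRL cells, by 0.48 ± 0.10 (adjusted p = 0.00549, edgeR), 0.27 ± 0.05 (0.00435), 0.25 ± 0.06 (0.00832) and 0.19 ± 0.05 (0.0148) on the log2 scale. By the same edgeR test, ARID1B (0.20 ± 0.04, adjusted p = 0.00534), SYNE1 (0.27 ± 0.08, 0.0413), IBTK (0.22 ± 0.06, 0.0296), RREB1 (0.15 ± 0.05, 0.042) and EEF1A1 (0.08 ± 0.02, 0.0493) rose. In shINCA1 cells these 9 gave log2 responses between -0.22 and 0.16 that did not pass. The difference between the lines did not pass for them either, with adjusted p from 0.417 to 1.0 (edgeR), so a difference in response was not shown. Several of these calls lay near the threshold, and the direction held in every fit with 1 library left out. The log2 responses in those fits were 0.0508 to 0.0933 for EEF1A1, 0.135 to 0.159 for RREB1, 0.209 to 0.301 for SYNE1, 0.172 to 0.268 for IBTK and -0.236 to -0.166 for ATXN1. Without 1 library, edgeR's adjusted p rose above the threshold for EEF1A1 in 9 of 12 cases (0.0586 to 0.246; not without IFNγ shCTRL 1, untreated shINCA1 2 or IFNγ shINCA1 3). RREB1 lost its call in 10 cases (0.0585 to 0.14; not without untreated shINCA1 2 or IFNγ shINCA1 3), and SYNE1 also in 10 (0.0561 to 0.19; not without untreated shINCA1 1 or 2). IBTK lost it in 7 cases (0.0505 to 0.151), those without untreated shCTRL 2 or 3, any IFNγ shCTRL library, untreated shINCA1 1 or IFNγ shINCA1 2. The ATXN1 call was lost without untreated or IFNγ shCTRL 3 (edgeR's adjusted p = 0.0648 and 0.0551). In shINCA1 cells the MARCKS call was lost without library 2 or 3 of either group (edgeR's adjusted p = 0.0519 to 0.102).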

How the data were processed

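Per the labels, the 12 U251 libraries were made with a kit for stranded mRNA. The deposited table holds estimated counts per gene symbol, whole numbers whose totals differ between samples, so that no scaling by the authors is seen. The submitters' processing notes name HISAT2, StringTie, Trimmomatic, FastQC and build hg19. Their versions, the annotation and the counting step are not given in the sources read. Among low values, counts gather at multiples of 3 (5790 values of 3, 1317 of 4), so counting intervals are too narrow; intervals and floors cover counting error alone.

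The members and the lists of roles and partners were chosen with earlier results of these data known. Groups came from titles and treatment labels. With R 4.3.3 and edgeR 4.0.16, genes passing filterByExpr (15769, with 99.986% of counts) were scaled by TMM and fitted by glmQLFit with 1 coefficient per group over all 12 libraries. Tests (glmQLFTest) were two-sided, Benjamini-Hochberg adjusted over all tested genes at 0.05. Standard errors are the log2 value over the root of F. Symbols were joined to GRCh38 RefSeq for chromosome and order (25431 by symbol, 1237 by older symbol). Alternatives were other size factors, filters and tests (DESeq2 1.42.0, limma 3.58.1 voom), a replicate block, fits of the compared groups by themselves, leaving out single libraries, and a threshold of 0.01.

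Named with values are the members past the threshold in an IFNγ response or in the difference of responses, the 5 lowest, the 5 highest and the 5 nearest to the median by average line difference. SOD2, WTAP and other members named beside their role group were added after their values were seen. The script was tested on simulated data.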

Additional observations from a re-analysis of the deposited data

Results flagged for a closer look

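SGK1 drew attention because its IFNγ response differed between the lines by a direct test: shINCA1 minus shCTRL was 1.06 on the log2 scale, with a standard error of 0.18 (edgeR's quasi-likelihood test, adjusted p = 0.0124). It fell by 1.0 in shCTRL cells, where all 3 treated libraries lay below all 3 untreated ones, and gave 0.06 in shINCA1 cells, where libraries overlapped. Its level in shINCA1 cells was already low before treatment, at 4.59 to 5.16 CPM. Leaving out each library in turn gave differences of 0.87 to 1.21. The cause was not tested.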

How the results depend on the processing

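Over 25 settings, of which 12 left out 1 library, 189 of 208 member counts and medians stayed close to the reported value (counts within 1.5 times, medians within 0.0448, the largest SD of the library medians in a group), and of 417 tests of named genes 359 kept their call, 58 lost it and 0 reversed. The median line difference with IFNγ ran from -0.727 to -0.656 when 1 library was left out. The 7 members raised in shCTRL became 3 with upper-quartile factors and 3 at a threshold of 0.01, and 3 to 7 with 1 library left out. The 2 members lowered in shINCA1 became 1 with only the groups compared and 1 at 0.01, and 1 to 2 with 1 library left out. The 1 member with a changed line difference, SGK1, became 0 at 0.01. EEF1A1 lost its call in shCTRL also with upper-quartile factors (adjusted p = 0.423, edgeR). The settings were chosen with earlier results known, and leaving out TPD52L1, SOD2 and WTAP was added after their values were seen.

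Over all genes, those lowered by IFNγ in shCTRL numbered 1184, against 1970 with upper-quartile factors and 605 at 0.01. In shINCA1 they numbered 465, against 733 with upper-quartile factors, 718 by DESeq2, 281 without the untreated shINCA1 library 3 and 195 at 0.01. The differences of responses were 97 higher and 173 lower, against 192 and 317 by DESeq2, 42 and 71 at 0.01, 57 higher without IFNγ shINCA1 library 3, and 95 to 154 lower with 1 library left out.

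Replicate numbers are shared by the groups. The 18 same-numbered pairs deviated together at correlations of -0.0424 to 0.14, with 3 over 0.1. Their median was 0.0362, against -0.017 for pairs with other numbers, and 8 of 12 libraries correlated best with their own number. These values are small but lean towards same-numbered libraries varying together. The main fit did not take the numbers as pairs, and whether they mark something shared was not tested. With the replicate number as a block, 9 members were raised in shCTRL, 3 in shINCA1, 48 were lower with IFNγ, and the median line differences were -0.673 untreated and -0.700 with IFNγ. The cause of these changes was not tested. Depth limits TPD52L1, whose shINCA1 libraries hold 0 to 6 counts.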
